A study of Mus musculus with 8 samples.

Results

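Oxidative phosphorylation draws on subunits encoded in the nucleus and on 13 proteins encoded by mitochondrial DNA. The nuclear genes described here are every symbol that begins with Nduf, Uqcr, Cox4 to Cox8 or Atp5, or is Sdha, Sdhb, Sdhc or Sdhd, without pseudogene names. There were 92 of them among 27998 gene rows of the single-cell matrices, and 92 among 20608 symbols of the sorted-cell table. The 13 mitochondrial genes, named with mt-, were set beside them in the single cells. The sorted-cell table listed 0 of them under such names. By role the 92 genes are 7 core subunits, 29 accessory subunits and 7 assembly factors of complex I, 4 genes of complex II, 8 of complex III, 12 widely used genes and 8 tissue isoforms of complex IV, 15 of complex V, and Atp5s and Atp5sl, 2 genes that carry the Atp5 name without being subunits. Roles were assigned from textbook knowledge, and Ndufa4 was placed in complex IV, where its protein sits.

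Patched 1 deficient mice were the source of every library. Patched 1 is the receptor that keeps Hedgehog signalling silent without ligand. Medulloblastoma cells of such mice are a model of Sonic hedgehog tumours that arise from cerebellar granule neuron precursors. Per the labels there was 1 single-cell library of a primary tumour and 1 of a relapsed tumour taken at 3 weeks, both dissociated with papain, and 6 libraries of sorted astrocytes, 3 named stroma A and 3 named stroma B. No label ties a stroma to primary or relapsed tumours, and the labels used here give neither age, strain nor the allele, and do not say whether animals were pooled. For the relapsed library, title and source label were followed, although its description speaks of a primary tumour. With 1 single-cell library per state there is no replicate check, so intervals on single-cell values are 95% intervals of counting error only and differences between them carry no p-value.

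In the respiratory chain, complex I takes electrons from NADH and complex II from succinate, complex III hands them to cytochrome c, and complex IV passes them to oxygen. Complexes I, III and IV pump protons, and complex V uses the gradient to make ATP. Complex II is encoded in the nucleus alone, while each of the others mixes nuclear with mitochondrial subunits. Several complex IV subunits exist as paired isoforms: Cox4i2, for example, replaces Cox4i1 in vascular smooth muscle, pericytes and lung, and Ndufa4l2 is a relative of Ndufa4 known as a target of the hypoxia-inducible factor HIF1. Granule neuron precursors and their tumours are known for aerobic glycolysis beside respiration.

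Upstream sequence is shown because the promoters of these genes are known for sites of NRF1, GABP and estrogen-related receptors, the factors that tie nuclear genes to mitochondrial growth. RefSeq promoter windows on GRCm38.p6, 250 bases before to 50 after a start, were found by symbol for 73 of the 92 genes. Each motif was searched on both strands over the whole window. The palindrome read by NRF1, in capitals in the Ndufaf4 sequence, stood in 7 of the 73 windows, or 9.59%, and in 1.07% of windows of all 27025 genes with one. CCGGAAG, a core read by GABP and other ETS factors, stood in 17, or 23.3%, against 9.93% of all genes. AAGGTCA, the half-site of estrogen-related receptors, stood in 8, or 11.0%, against 5.38%. A match describes letters and not binding, and short motifs overlap by chance. The 250 bases before the start follow for 1 gene with each motif, 5′ to 3′ on the strand of the gene, with the motif in capitals. Ndufaf1 is also the assembly factor with the lowest relapsed value below, at chr2:119662835-119663084 on the minus strand. Ndufaf4, at chr4:24897833-24898082 on the plus strand, holds the NRF1 palindrome. Atp5g3, at chr2:73911327-73911576 on the minus strand, holds the half-site as its reverse complement.
Ndufaf1: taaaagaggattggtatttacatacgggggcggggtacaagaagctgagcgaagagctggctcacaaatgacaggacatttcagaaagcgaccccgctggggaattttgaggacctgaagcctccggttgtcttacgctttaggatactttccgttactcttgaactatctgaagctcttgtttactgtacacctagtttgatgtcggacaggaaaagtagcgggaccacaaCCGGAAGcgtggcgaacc
Ndufaf4: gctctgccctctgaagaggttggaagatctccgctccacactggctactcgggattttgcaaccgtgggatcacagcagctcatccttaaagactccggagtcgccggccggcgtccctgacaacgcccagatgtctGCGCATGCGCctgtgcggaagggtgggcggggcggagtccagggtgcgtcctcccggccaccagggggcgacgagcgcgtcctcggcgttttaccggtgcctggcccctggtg
Atp5g3: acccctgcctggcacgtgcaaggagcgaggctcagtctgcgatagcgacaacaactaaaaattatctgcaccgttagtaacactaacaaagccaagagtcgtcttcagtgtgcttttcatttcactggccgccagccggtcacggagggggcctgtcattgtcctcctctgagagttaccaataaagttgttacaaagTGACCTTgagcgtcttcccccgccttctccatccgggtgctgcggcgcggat

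In all, 56332247 UMIs over 9164 barcodes came from the primary tumour (median depth 5404) and 69403567 UMIs over 7852 barcodes from the relapsed tumour (median depth 7230). The libraries shared 93 barcode sequences. After filters, 8548 primary and 7369 relapsed cells remained. The sorted libraries held 6718165 to 11798735 reads. Ptch1 was detected in every library, at 136 and 142 CPM (UMIs or reads of a gene, scaled to a library total of 1e+06) in the primary and relapsed cells, at 143, 70.3 and 111 CPM in stroma A, against 541, 516 and 118 CPM in stroma B. The sorted libraries differed in cell type markers as well as in label. Gfap, an astrocyte filament gene, ranged from 37.4 to 146 CPM in stroma A, and between 81.4 and 963 in stroma B, while Pdgfra, a receptor of oligodendrocyte precursors, ranged from 3988 to 7606 CPM in stroma A, and between 485 and 3607 in stroma B. Stroma A replicate 2 held the lowest Gfap, Aqp4 and Slc1a3 levels. Fewer cells of a type and less RNA per cell cannot be told apart in these libraries.

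In the whole tumour the summed nuclear genes took nearly the same share of RNA in both states. All kept cells held 32523 CPM of nuclear oxidative phosphorylation RNA in the primary against 32386 in the relapsed library, a log2 ratio of -0.01. The 13 mt- genes held 35056 and 32009 CPM, a log2 ratio of -0.13. The cell classes differed more than the 2 libraries did. In the primary library the summed nuclear level ran from 25553 CPM in microglia and macrophage-like cells (215 cells) through 27872 in vascular and connective tissue-like cells (29), 31142 in astrocyte-like cells (130), 32312 in the granule lineage (7373) and 35502 in oligodendrocyte precursor-like cells (208) to 43724 in cells left unnamed (593). In the relapsed library it ran from 23788 CPM in pituitary hormone cell-like cells (122), which were found in that library, through 26514 in microglia and macrophage-like cells (31), 32323 in the granule lineage (6923), 33934 in vascular and connective tissue-like cells (44), 39555 in oligodendrocyte precursor-like cells (34) and 40467 in astrocyte-like cells (69) to 43197 in unnamed cells (146). Microglia and macrophage-like cells stood below the granule lineage by -0.34 (log2) in the primary against -0.29 in the relapsed library. The unnamed cells lay in 2 clusters with medians of 1158 and 1444 detected genes, and their part in the high value was not tested.

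**Figure D1:**
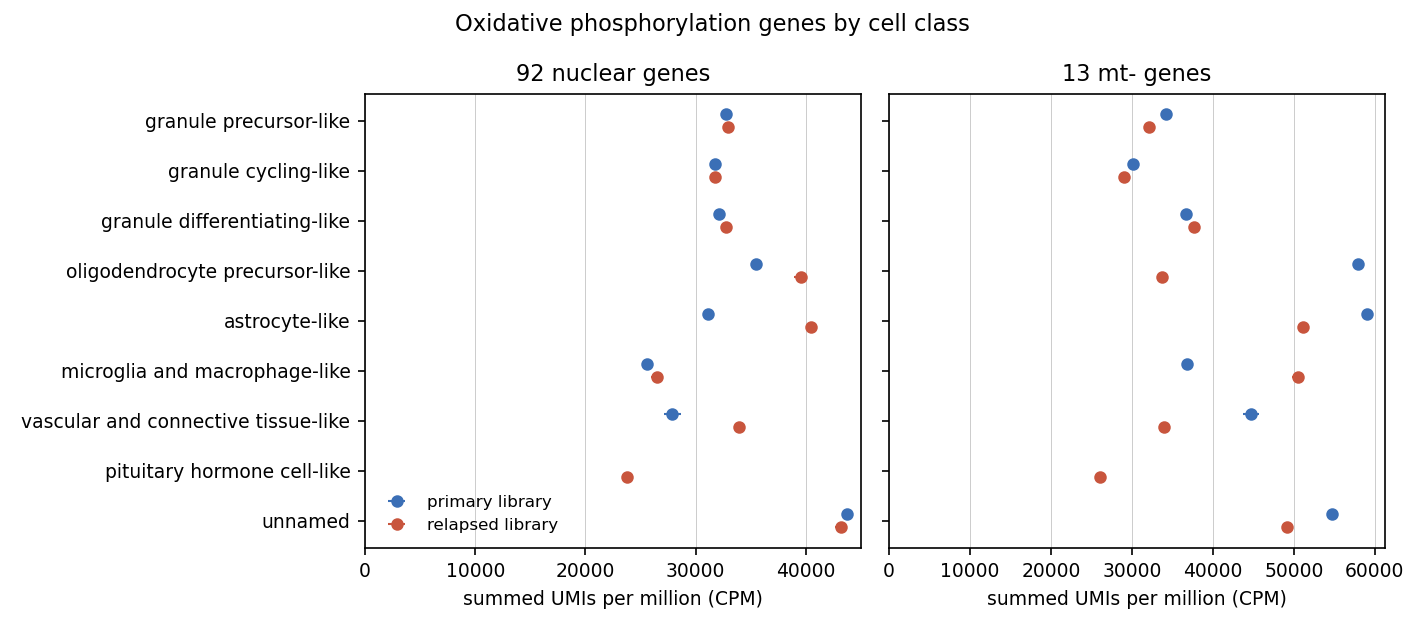
Summed CPM of the 92 nuclear genes (left) and of the 13 mt- genes (right) by cell class, with 1 point per library and exact Poisson 95% intervals, which are mostly narrower than the points; classes with under 20 cells in a library are not drawn. Nuclear points of the 3 granule classes nearly coincide between libraries, while the relapsed astrocyte-like point lies to the right of the primary one. The primary astrocyte-like mt- point, at 59061 CPM, includes 5 haemoglobin-rich cells, without which it would lie at 50917 CPM, beside the relapsed one. The relapsed point includes 1 cell of 98707 UMIs with 0.871% mt- UMIs.

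Within the granule lineage, which holds the tumour cells, the nuclear sum was 32312 CPM in the primary against 32323 in the relapsed library, a log2 ratio of 0.00 (-0.003 to 0.004). The 3 states of the lineage gave the same picture. Precursor-like cells held 32768 and 32934 CPM, cycling cells 31798 and 31786, and differentiating cells 32152 and 32806. Differentiating cells held more mt- RNA (36654 and 37652 CPM) than cycling cells (30192 and 29063) in both libraries. Nearly all large granule clusters held cells of 1 library alone, so clusters themselves were not compared.

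The even sum covered unequal parts. Complex IV summed to 9317 CPM in the primary against 9848 in the relapsed lineage (log2 0.08, 0.07 to 0.09), whereas complex I core subunits summed to 1192 and 1048 CPM (-0.19, -0.20 to -0.17) and complex II to 543 and 481 CPM (-0.17, -0.20 to -0.15). Complex I assembly factors summed to 272 and 209 CPM (-0.38, -0.42 to -0.35), the lowest ratio of the groups of subunits and assembly factors. All 7 core subunits of complex I had lower relapsed values, as had 6 of 7 assembly factors. Of all 12682 genes measured, 41.8% were higher in the relapsed lineage, so most genes of any kind were lower. Among 88 members with at least 50 UMIs over both libraries, 38 were higher. Their median log2 ratio was -0.04 against -0.10 for all genes. Only 2 members were higher and 1 lower by 1.5-fold or more, where 12.6% of all genes were higher and 18.6% lower by that much.

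Ndufaf1, an assembly factor for the membrane arm of complex I (chr2:119655446-119662827, mm10, minus strand), was the member past 1.5-fold on the low side. Its level in the granule lineage was 21.2 CPM (968 UMIs) in the primary against 4.54 CPM (255 UMIs) in the relapsed library, a log2 ratio of -2.22 (-2.43 to -2.02). The ratio was -2.06 in precursor-like, -2.23 in cycling and -2.36 in differentiating cells, so every state of the lineage showed it. Outside the lineage Ndufaf1 had under 50 UMIs per class and was lower too, with 20 and 10 UMIs in astrocyte-like cells (-1.56, -2.82 to -0.40) and 26 and 1 in unnamed cells (-3.17, -8.53 to -0.57). In microglia and macrophage-like, oligodendrocyte precursor-like and vascular and connective tissue-like cells the intervals span 0. In sorted astrocytes Ndufaf1 stood at 15.6, 15.1 and 10.2 CPM in stroma A, against 17.5, 16.8 and 17.1 CPM in stroma B, with an adjusted p of 0.523 by edgeR's quasi-likelihood test. The next lowest members were Ndufb10, an accessory subunit (222 and 154 CPM, -0.53), Ndufaf3, which helps assemble the arm that binds NADH and quinone (50.9 and 35.5 CPM, -0.52), Sdha, the flavoprotein of complex II (127 and 88.7 CPM, -0.51), and Ndufaf5, a methyltransferase of complex I assembly (25.6 and 18.6 CPM, -0.46). Sdha had the lowest ratio of the complex II genes, since Sdhb stood at 219 and 204 CPM, Sdhc at 97.9 and 85.3, and Sdhd at 99.1 and 103.

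On the high side were 2 complex IV isoforms at low levels. Ndufa4l2 (chr10:127514967-127517154, mm10, plus strand) stood at 1.69 CPM (77 UMIs) and 10.1 CPM (569 UMIs), a log2 ratio of 2.59 (2.24 to 2.95). Cox4i2 (chr2:152754173-152765037, plus strand) stood at 0.547 CPM (25 UMIs) and 1.83 CPM (103 UMIs), a log2 ratio of 1.74 (1.10 to 2.44). Their widely used partners did not share a direction. Ndufa4, a subunit on the outer face of complex IV, stood at 1012 and 1437 CPM (0.51), and Cox4i1, its regulatory subunit, at 1482 and 1287 CPM (-0.20). Atp5k and Ndufa5, small subunits of complex V and complex I, followed at 0.36 and 0.35.

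The relapsed Ndufa4l2 counts came from few cells. Among 6923 relapsed granule cells, 103 held at least 2 of its UMIs and together 441 of the 569. These 103 cells held 16262 CPM of glycolysis genes, against 5545 in the 6692 relapsed cells with 0, and 26795 against 31498 CPM of mt- genes. Ndufa4 stood at 1008 CPM in them and at 1447 in the others, Cox4i2 at 32.6 and 1.33, and the 92 nuclear genes at 31182 and 32366. Vegfa and Car9, which hypoxia is known to induce, stood at 8.44 and 4.82 CPM, against 1.22 and 0.166. In the 103 cells the 32.6 CPM of Cox4i2 were 27 UMIs, so their Vegfa and Car9 values rest on few UMIs, and no intervals were taken. Pericyte-like cells had the highest Ndufa4l2 levels, and summed pericyte markers were at 1.21 CPM in the 103 cells, a value at the limit of detection, and 2.49 in the others. The cells were picked by their own Ndufa4l2 count, so only the other genes are a comparison. In the primary library 5 cells held 2 or more of its UMIs and 63 held 1, and there the glycolysis and mt- values went the other way. Glycolysis genes stood at 3021 and 3468 CPM in these 2 sets, against 3803 in primary cells with 0. The mt- genes stood at 35254 and 34836 CPM, against 33259. Ndufa4, at 863 and 963 CPM against 1012, was lower in these primary sets too.

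**Figure D2:**
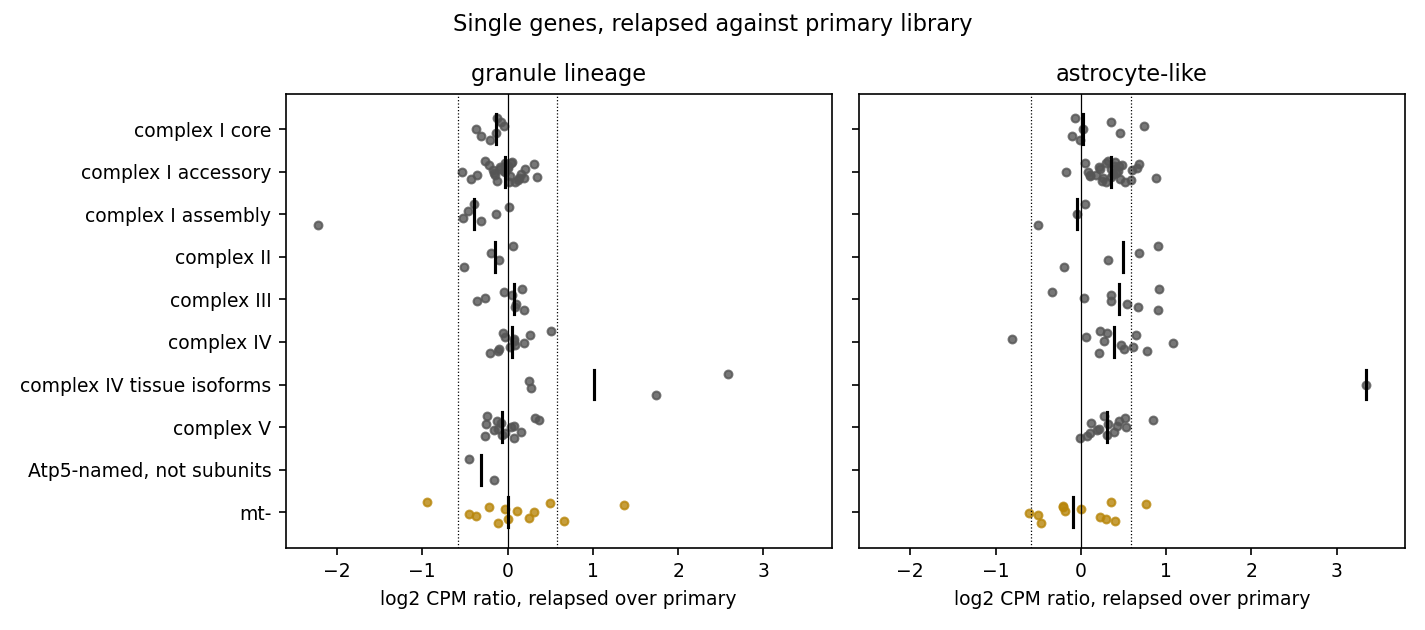
Log2 CPM ratio, relapsed over primary, of each nuclear gene (grey) and mt- gene (gold) with at least 50 UMIs, by group of genes, in the granule lineage (left) and in astrocyte-like cells (right); bars are group medians and dotted lines mark 1.5-fold. In the granule lineage the points crowd around 0 apart from Ndufaf1 at -2.22 and Ndufa4l2 and Cox4i2 at 2.59 and 1.74, while in astrocyte-like cells most nuclear points lie to the right of 0.

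The mt- genes of the granule lineage, 33276 and 31424 CPM in sum (-0.08), did not share a direction. mt-Nd4l, a small complex I subunit, stood at 65.8 and 170 CPM (1.37), mt-Atp8, of complex V, at 47.1 and 74.3 (0.66), and mt-Nd5 at 153 and 216 (0.50). mt-Cytb, the cytochrome b of complex III, stood at 3960 and 2900 CPM (-0.45), mt-Co3 at 6544 and 5061 (-0.37), and mt-Nd6, the gene read from the other strand, at 14.4 and 7.46 (-0.95). Sums by complex were 6717 and 7484 CPM for complex I (0.16) and 13910 and 12973 for complex IV (-0.10). mt-Nd1, mt-Nd2, mt-Co1 and mt-Co2 had ratios of 0.31, 0.11, 0.01 and 0.25, and mt-Atp6, mt-Nd3 and mt-Nd4 of -0.11, -0.03 and -0.22.

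In pooled sums, astrocyte-like cells had the largest nuclear ratio between the libraries among the classes compared, though not by the median share per cell, where vascular and connective tissue-like cells (2.74% and 3.34%) differed as much. They held 31142 CPM (130 primary cells) and 40467 CPM (69 relapsed cells), a log2 ratio of 0.38 (0.36 to 0.40). The nuclear genes were a median of 3.07% of a cell's UMIs in the primary against 3.65% in the relapsed library, and 54 of 69 relapsed cells lay above the primary median. The mt- sum was 59061 CPM in the primary against 51169 in the relapsed cells (-0.21), but single deep cells weighed on both sums. In the primary library, 5 cells with over 1% haemoglobin UMIs held 21.2% of the UMIs. In the relapsed library, 1 cell of 98707 UMIs had 0.871% mt- and 5.82% nuclear UMIs, and sums without it were not taken. Without the 5 primary cells, an alternative chosen after seeing the data, the mt- sum was 50917 and 51169 CPM (log2 0.01, -0.01 to 0.03), and the nuclear ratio was 0.32. Among cells with at least 1% astrocyte marker UMIs the mt- ratio was -0.15 (-0.17 to -0.12). The median mt- share per cell was 4.74% in the primary, against 5.12% in the relapsed library. Of 79 members measured, 69 were higher in the relapsed cells, against 45.1% of all 5595 genes. Their median log2 ratio was 0.34 against -0.09 for all genes. By 1.5-fold or more, 17 were higher and 1 lower, against 18.6% and 24.5% of all genes. The relapsed cells were deeper, with a median of 16217 UMIs against 4735.

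Every complex had a higher sum in the relapsed cells, with complex III at 3247 and 4490 CPM (0.47), complex IV at 9335 and 12560 (0.43), complex II at 527 and 695 (0.40), accessory subunits of complex I at 8429 and 10890 (0.37) and complex V at 8287 and 10315 (0.32). Core subunits of complex I had a smaller ratio, 1015 and 1155 CPM (0.19, 0.06 to 0.31), and assembly factors one whose interval spans 0 (227 and 192 CPM, -0.52 to 0.04). Cox6c, a small subunit of complex IV, stood at 947 and 2005 CPM (1.08, 0.97 to 1.20). Uqcrq and Uqcr10, small subunits of complex III, stood at 461 and 871 CPM (0.92) and at 479 and 897 CPM (0.90), and Sdhd, a membrane anchor of complex II, at 80.3 and 150 CPM (0.91). Ndufa4l2 stood at 5.99 CPM (5 UMIs) and 61.0 CPM (75 UMIs), a log2 ratio of 3.35 (2.06 to 5.01).

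Cox7a2l, known as a supercomplex assembly factor, was the member past 1.5-fold on the low side, at 568 and 325 CPM (-0.80, with an interval below 0). Ndufaf2, at 63.5 and 44.7 CPM, and Sdha, at 129 and 113, had intervals that span 0, and Uqcrh, the hinge protein of complex III, stood at 883 and 700 CPM (-0.34).

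The 2 sets of astrocyte-like cells differed in makeup beside these genes. Astrocyte markers summed to 9227 CPM in the primary against 23928 in the relapsed cells, granule precursor markers to 3459 and 1671, macrophage markers to 349 and 15.5, and erythrocyte genes to 3146 and 2.44. Cytosolic ribosomal protein genes stood at 205901 and 136618 CPM (-0.59) and glycolysis genes at 3566 and 9049 (1.34). In cells with at least 1% of UMIs from astrocyte markers, 49 primary and 56 relapsed, the nuclear sum was 33242 and 40100 CPM, a log2 ratio of 0.27 (0.24 to 0.30). There, 69 of 79 members were higher, 12 higher and 1 lower by 1.5-fold or more, against 16.9% and 19.2% of 3789 genes. The median log2 ratio was 0.27 for the members and -0.05 for all genes. Cox6c stood at 1250 and 2036 CPM (0.70), Cox5a at 368 and 730 (0.99), and Cox7a2l at 368 and 309, with an interval of -0.58 to 0.10 that spans 0. In cells with at least 5000 UMIs, 57 and 67, the nuclear sum was 31408 and 40587 CPM. How far makeup or depth shares in the remaining difference was not tested.

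Clustered again without member and mt- genes, the relapsed astrocyte-like cells did not share one level. The main relapsed sub-cluster (34 cells, with Mt2, Fabp7, Slc4a4 and Aqp4 leading) held 42821 CPM of nuclear genes (42335 to 43311), 62298 of mt- genes and 8549 of glycolysis genes. A sub-cluster of 15 relapsed cells led by Crispld2, Timp1, Serpina3n and Lcn2 held 29659 CPM (28946 to 30386), 51511 of mt- genes and 16185 of glycolysis genes. Its nuclear level lay within the 29511 to 34850 CPM of the 5 primary sub-clusters, whose glycolysis genes summed to 3230 to 4988. The primary sub-cluster with the most cells, 45, had only 4 astrocyte markers at 4-fold or more, and the one of 34 primary cells with 16 such markers held 33076 CPM.

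That glycolysis-rich relapsed sub-cluster carried most of the isoform counts. It held 62 of the 75 Ndufa4l2 UMIs of relapsed astrocyte-like cells, in 8 cells, and 34 of the 41 Cox4i2 UMIs, in 10 cells, levels of 280 and 154 CPM. Ndufa4 stood at 493 CPM there and at 951 in the main relapsed sub-cluster, and Cox4i1 at 1103 and 1787. Vegfa and Car9 stood at 285 and 212 CPM, against 17.3 each. Car9 was itself among the leading genes of this sub-cluster, and Vegfa and the glycolysis genes were not left out when the sub-clusters were formed. Of pericyte markers, Pdgfrb and Vtn were at 0 in these 15 cells, and Rgs5 stood at 31.6 CPM. All pericyte markers summed to 316 CPM there and to 663 in the main relapsed sub-cluster. Chosen after the values were seen, these contrasts within 1 library have no replicate.

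**Figure D3:**
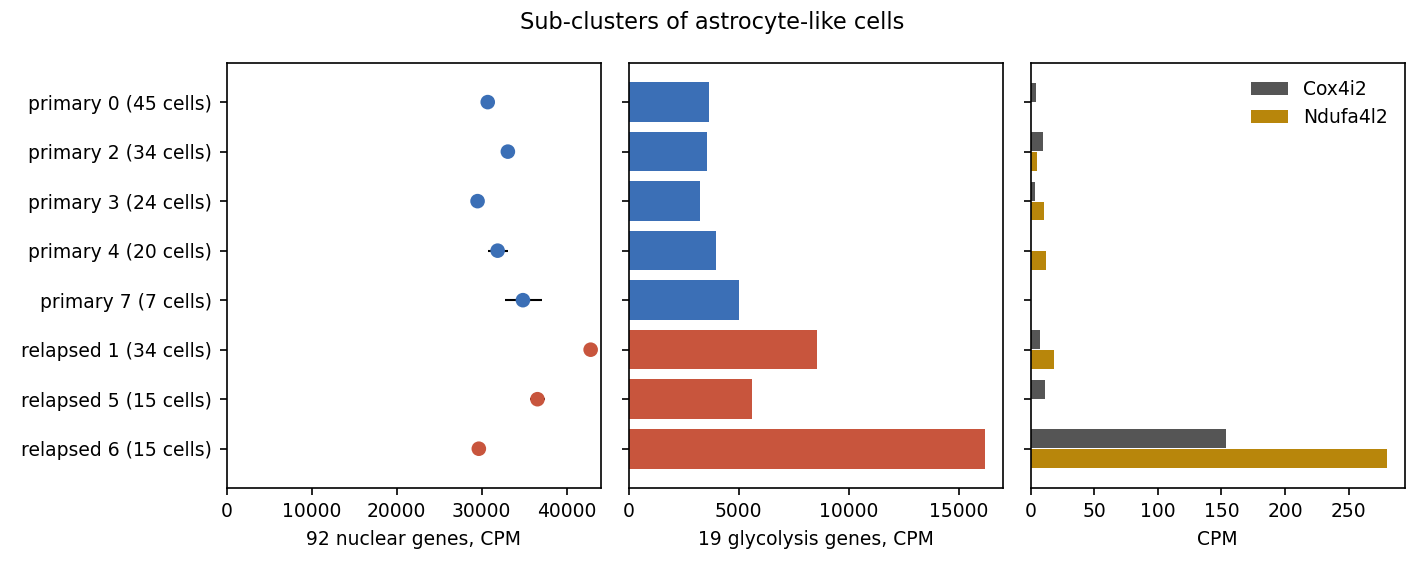
Sub-clusters of astrocyte-like cells with at least 5 cells of a library (blue primary, red relapsed): summed CPM of the 92 nuclear genes with exact Poisson 95% intervals (left), of 19 glycolysis genes (middle), and CPM of Cox4i2 and Ndufa4l2 (right). Relapsed sub-cluster 6 has the longest glycolysis and isoform bars and, at 29659 CPM, a nuclear level among those of the primary sub-clusters.

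Across classes the tissue isoforms of complex IV were the members with the most uneven levels. In pericyte-like cells, 3 primary and 13 relapsed, every cell held both isoforms: Cox4i2 at 1073 and 949 CPM (15 and 115 UMIs) and Ndufa4l2 at 1788 and 1468 CPM (25 and 178 UMIs). In fibroblast-like cells of the relapsed library, Ndufa4l2 stood at 80.0 CPM, in 13 of 22 cells, and Cox6b2, a form known from testis, at 119 CPM, in 15 cells. Microglia and macrophage-like cells, set here as a class that should lack them, held 0 Ndufa4l2 UMIs in 215 primary cells, which allows a share of up to 1.40% of cells with a UMI, and 0 in 31 relapsed cells. Their Cox4i2 stood at 2.30 CPM (4 UMIs) and 5.44 CPM (2 UMIs), at median depths of 6056 and 11083 UMIs. The pericyte-like cells had median depths of 4038 and 9071 UMIs.

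Cox6a2, the muscle and heart form of Cox6a, stood at 13.2 CPM (23 UMIs in 12 cells) and 32.6 CPM (12 UMIs in 2 cells) in microglia and macrophage-like cells, and at most 2.40 CPM in astrocyte-like cells. Cox7a1, the contractile tissue form of Cox7a, stood at 13.2 CPM (11 UMIs) and 30.1 CPM (37 UMIs) in astrocyte-like cells, with a log2 ratio of 1.19 (0.19 to 2.31), and at 1.71 and 2.03 CPM in the granule lineage. Cox7b2, Cox8b and Cox8c, known mainly from testis, muscle or both, were near the limit of detection, with Cox8c at 2 UMIs in 1568 relapsed differentiating cells. The widely used forms Cox6a1, Cox6b1, Cox7a2, Cox7b and Cox8a stood at 596, 777, 816, 391 and 985 CPM in primary granule cells, with relapsed ratios of 0.02, 0.08, 0.08, -0.02 and -0.05. Atp5g1, Atp5g2 and Atp5g3, 3 genes that encode the same ring subunit of complex V, stood at 536, 712 and 265 CPM, with ratios of -0.11, 0.04 and 0.07.

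In microglia and macrophage-like cells the nuclear sum was near even, 25553 and 26514 CPM (0.05, 0.02 to 0.08), while the mt- sum was 36785 and 50535 CPM (0.46). Of 78 members measured, 2 were higher and 4 lower by 1.5-fold or more, against 12.5% and 22.3% of all 4462 genes. Ndufa3, an accessory subunit, stood at 212 and 400 CPM (0.92), and Cox5a, a matrix-side subunit of complex IV, at 485 and 777 (0.68). Ndufaf3 had 83 and 7 UMIs (-1.32), Ndufb10 at 175 and 89.7 (-0.96), and Ndufa9 at 97.6 and 57.1 (-0.77). Other accessory subunits went both ways, with ratios of 0.51 for Ndufb9, 0.43 for Ndufb8 and -0.65 for Ndufa12, and the core subunit Ndufs1, at -0.56, had an interval that spans 0. Cox6c stood at 614 and 856 CPM (0.48). The 31 relapsed cells set the width of these intervals, which is -2.68 to -0.22 for Ndufaf3. mt-Nd4l, at 40.2 and 239 CPM (2.57), had the largest mt- ratio of this class, mt-Nd3 stood at 252 and 606 CPM (1.27), and mt-Cytb, at 3532 and 3219 CPM, had a ratio of -0.13.

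Oligodendrocyte precursor-like cells showed nuclear and mt- genes in opposite directions. The nuclear sum was 35502 CPM (208 primary cells) and 39555 CPM (34 relapsed cells), a log2 ratio of 0.16 (0.13 to 0.18), and the mt- sum was 57934 and 33694 CPM (-0.78, -0.81 to -0.76). Of 77 members measured, 18 were higher and 1 lower by 1.5-fold or more, against 20.4% and 27.1% of all 4113 genes. The high ones included parts of the complex V head and stalk: Atp5a1 at 305 and 839 CPM (1.46), Atp5c1 at 292 and 744 (1.35) and Atp5f1 at 269 and 669 (1.32). Uqcrc2, a core protein of complex III, stood at 63.0 and 206 CPM (1.71) and Ndufa9 at 65.4 and 167 (1.35). Ndufv3, at 277 and 167 CPM (-0.73), and Ndufa7, at 630 and 445 (-0.50), had the lowest ratios, followed by the accessory subunits Ndufa11 (-0.48), Ndufb2 (-0.47) and Ndufa13 (-0.45).

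Of the 12 mt- genes measured, 9 were lower in the relapsed cells, among them mt-Co3 (12672 and 5085 CPM, -1.32), mt-Atp6 (13464 and 8379, -0.68), mt-Nd4 (3696 and 1624, -1.19), mt-Cytb (6691 and 3088, -1.12) and mt-Co1 (8625 and 4142, -1.06), while mt-Nd1 stood at 6064 and 6111 CPM. The 2 libraries gave this class through different clusters, 1 of 208 primary and 1 of 34 relapsed cells. Oligodendrocyte precursor markers summed to 10682 and 5052 CPM in them, oligodendrocyte markers to 4290 and 246, glycolysis genes to 2096 and 5296, and median depths were 3529 and 12839.5 UMIs. Their part in the oxidative phosphorylation values was not tested.

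Vascular and connective tissue-like cells, 29 primary and 44 relapsed, held 27872 and 33934 CPM of nuclear genes (0.28, 0.24 to 0.33) and 44735 and 33930 CPM of mt- genes (-0.40). Of 77 members measured, 18 were higher and 0 lower by 1.5-fold or more, against 26.2% and 15% of all 2841 genes. The class mixes cell types in unlike proportions, with 20 endothelial-like, 6 fibroblast-like and 3 pericyte-like cells in the primary library and 9, 22 and 13 in the relapsed library. Cox5a stood at 338 and 709 CPM (1.07), Cox5b, another subunit of complex IV, at 349 and 708 (1.02), and mt-Cytb at 5991 and 3194 (-0.91). Endothelial-like cells alone held 26777 CPM (20 primary cells) and 27740 CPM (9 relapsed cells).

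Few members kept one direction throughout. Ratios over classes were taken here with 0.5 added to each count. Of 74 members measured in all 8 classes that share no cells, unnamed cells included, 5 were higher in the relapsed library in every class and 1 was lower. The share of all genes with one direction in every class was not taken, so counts of this kind have no background here. By class, 42.1% (cycling) to 57.6% (vascular and connective tissue-like) of all genes measured were higher. The 5 were Atp5g3, Atp5k, Atp5l, Uqcrq and Cox7c, with Cox7c, a small subunit of complex IV, between 0.17 and 0.90. The 1 was Ndufb10, whose ratio was smallest in size in vascular and connective tissue-like cells, at -0.03, and its interval there, taken without the 0.5, spans 0. Ndufaf3 was lower in all 7 classes that measured it. Ndufa4 was higher in 6 classes and lower in the other 2, ranging from -0.30 to 0.52. mt-Nd4l was higher by 1.5-fold or more in all 8 classes (0.77 to 2.57), and mt-Cytb was lower in all 8 (-1.12 to -0.13).

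In sorted astrocytes none of the 87 nuclear oxidative phosphorylation genes tested passed between the stromas. Their summed level was 6385, 6463 and 5080 CPM in stroma A, against 6605, 5714 and 6155 CPM in stroma B. The means were 5976 ± 777 and 6158 ± 446 CPM (SD, n = 3 each), so the groups overlap and differ by less than their spread. edgeR's quasi-likelihood test passed 0 of 87 members at an adjusted p of 0.05, against 0.663% of all 14176 genes. At an unadjusted p under 0.05 by edgeR there were 3 members, against 21.8% of all genes. The other tools run, DESeq2 and limma on log2(FPKM + 1), also passed 0 members, against 7.83% and 1.36% of all genes. At an unadjusted p under 0.05, DESeq2 had 2 of 92 members, against 4051 of all 19969 genes. In the same way limma had 5 of 86 members, against 2791 of all 13261 genes. Groups did not overlap in 13 members, or 14.9%, against 27.2% of all genes. Of the 87, 77 had a log2 difference within 0.5 of 0, and the median was 0.06 against -0.03 for all genes. Cycling markers summed to 2214 ± 284 CPM (SD, n = 3) in stroma A, against 6259 ± 661 in stroma B, without overlap for any of the 20, and their part in the values here was not tested. Whether the libraries of a stroma came from separate animals is not stated, so the p-values measure the spread between these libraries.

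Atp5f1, the b subunit in the stalk of complex V, came nearest to passing. It stood at 73.5, 82.0 and 59.6 CPM in stroma A, against 115, 105 and 99.5 CPM in stroma B, and every stroma B library lay above every stroma A library. The log2 fold change was 0.57 (SE 0.19) with an adjusted p of 0.157 by edgeR. Ndufv3, a complex I subunit that comes in long and short forms, stood at 62.9, 77.9 and 61.1 CPM in stroma A, against 53.6, 46.6 and 46.7 CPM in stroma B, with an adjusted p of 0.220 by edgeR. Ndufs4, an accessory subunit whose loss is known to cause Leigh syndrome, stood at 76.8, 81.1 and 74.0 CPM in stroma A, against 95.6, 94.7 and 121 CPM in stroma B, with an adjusted p of 0.227 by edgeR. The stromas did not overlap for either gene.

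The groups of libraries also did not overlap for Cox5a, Uqcrc1 and Ndufaf1, none of which passed. Cox5a stood at 34.1, 31.1 and 28.6 CPM in stroma A, against 40.8, 45.8 and 37.4 in stroma B, and Uqcrc1, a core protein of complex III, at 197, 176 and 146 against 125, 143 and 141. Their adjusted p-values by edgeR were 0.285 and 0.320. Ndufaf4 stood at 31.9, 30.0 and 22.9 CPM in stroma A, against 43.5, 28.2 and 48.5 in stroma B, where the groups overlap. Subunits with strong signal were even: Atp5a1, the alpha subunit of the complex V head, stood at 853, 718 and 587 CPM in stroma A, against 720, 759 and 714 in stroma B, and Sdha at 196, 181 and 205 against 204, 213 and 189.

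By complex the groups overlapped as well. Complex V summed to 2053 ± 311 CPM in stroma A, against 2213 ± 90.7 in stroma B, accessory subunits of complex I to 1371 ± 201 and 1400 ± 174, complex IV to 737 ± 135 and 749 ± 86.3, complex I core to 644 ± 79.2 and 637 ± 35.1, and complex II to 415 ± 21.4 and 397 ± 13.5 (SD, n = 3). Fitted values were higher in stroma B for 13 of 15 complex V genes and lower for 4 of 7 core genes of complex I, and none of them passed. Of all 14176 genes tested, 6863 had higher fitted values in stroma B.

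**Figure D4:**
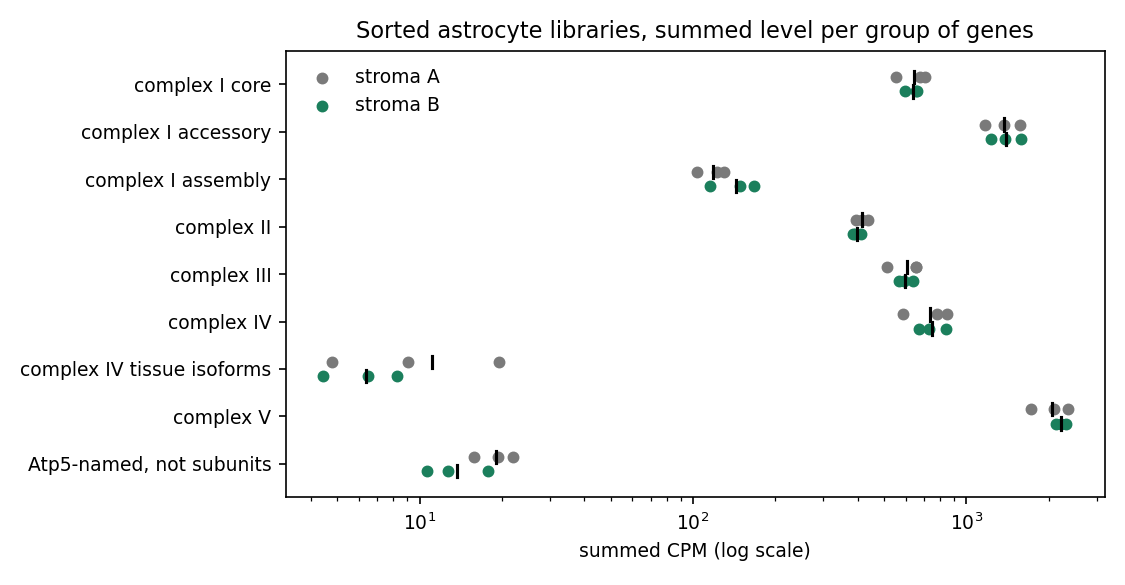
Summed CPM (log scale) of each group of nuclear genes in the 3 stroma A (grey) and 3 stroma B (green) libraries, with 1 point per library and a bar at the group mean. The ranges of the stromas overlap in every group drawn, and the widest spread is in the tissue isoforms.

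Among the tissue isoforms, Cox4i2 and Ndufa4l2 overlapped between the stromas. Cox4i2 stood at 0.228, 0.413 and 5.95 CPM in stroma A, against 0.998, 0.709 and 0 in stroma B, and Ndufa4l2 at 0.342, 3.03 and 8.20 CPM against 0.222, 3.72 and 0.922. Both were highest in stroma A replicate 3, with 53 and 73 reads. Summed pericyte markers stood at 2317, 1347 and 2663 CPM in stroma A, against 228, 571 and 1122 in stroma B. That list shares Cspg4 with the oligodendrocyte precursor markers, which summed to 28599, 18287 and 17740 CPM in stroma A, against 4226, 5787 and 18899 in stroma B. Astrocyte markers summed to 8136, 4775 and 10847 CPM in stroma A, against 11955, 19917 and 7825 in stroma B. The median pericyte marker, at 1.10, 4.70 and 6.11 log2 CPM against 3.11, 3.44 and 2.11, was also highest in stroma A replicate 3. The part of pericytes in the isoform values was not tested. Cox6a2 had 11, 2 and 12 reads in stroma A, against 0, 0 and 1 in stroma B, so its few reads did not overlap. Microglia, the cells with its highest single-cell levels, had summed markers of 36.2, 707 and 2888 CPM in stroma A, against 129, 83.2 and 40.6 in stroma B, and their part in these reads was not tested. Cox4i1 stood at 209, 257 and 148 CPM against 209, 165 and 177. Cox4i2, Cox6a2, Cox7a1, Cox8b and Cox8c did not reach the filter on low counts and were not tested.

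A set of 7 members was abundant in the single cells and nearly absent from the sorted counts. Atp5g1, Atp5g2, Atp5l, Cox7c, Ndufab1, Ndufb4 and Ndufs5 averaged 1.13 to 4.35 CPM in the sorted libraries, yet stood at 232 to 974 CPM in the 2 single-cell libraries. Atp5g2 had 14, 2 and 5 reads in stroma A, against 5, 17 and 25 in stroma B, and Cox7c had 15, 18 and 9 against 7, 32 and 21. The other 64 members at 100 CPM or more in both single-cell libraries averaged 12.4 to 725 CPM. Single cells are of all types, while the sorted libraries are labelled as astrocytes and also held markers of other types. The levels are therefore a side-by-side view with no test.

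Transcripts of all 7 shared 50-base stretches with other annotated genes on mm10, from 11.6% to 100% of their 50-mers, with a median of 41.2%, and all 7 with an annotated pseudogene. Atp5g2 shared 100%, Atp5l 84.8% and Cox7c 53.0%. Among the other 64 members, 37 shared any stretch, 24 at least 10% and 27 with a pseudogene, with a median of 1.66%. The 2 kinds of deposited value also parted. The ratio of deposited FPKM to CPM per kilobase had a median of 4.63 for the 7 and 0.483 for the 64. It depends on the transcript chosen per gene, and was highest for Atp5g1 (10.2, 4715 bases) and Ndufab1 (10.9, 3479 bases). How the authors treated reads that match several places is not given in the sources used here, so values of these 7 in the sorted libraries are uncertain.

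**Figure D5:**
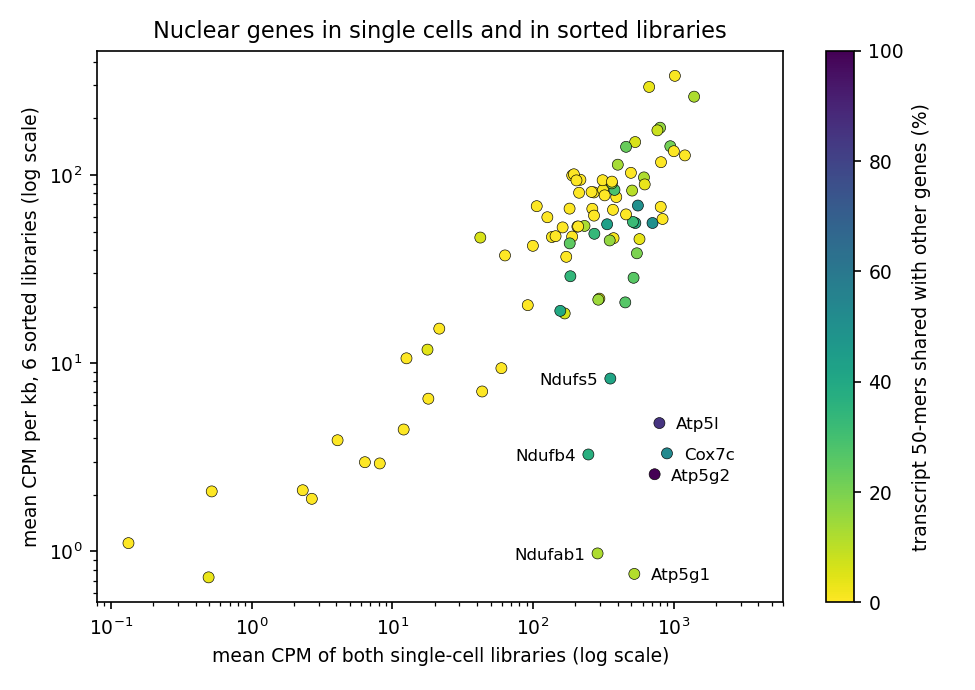
Mean CPM per kilobase of transcript in the 6 sorted libraries against mean CPM of both single-cell libraries, on log scales, with 1 point per nuclear gene, coloured by the share of its transcript 50-mers found in other annotated genes. The 7 named genes lie below the other genes of like single-cell level, with Atp5g1 and Ndufab1 the lowest of the 7 on chosen transcripts of 4715 and 3479 bases. In CPM without length, Atp5g2 and Cox7c were the lowest, at 1.13 and 1.79.

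Other genes of mitochondria and energy metabolism were read as lists. In the granule lineage, primary and then relapsed, glycolysis genes summed to 3799 and 5748 CPM (log2 0.60), with 11 of 18 measured genes higher, 3 higher and 2 lower by 1.5-fold, against 12.6% and 18.6% of all genes. Mitochondrial ribosomal proteins summed to 8101 and 6999 CPM (-0.21), with 16 of 77 higher and 14 lower by 1.5-fold, a share near the 18.6% of all genes that were. Of all genes, 41.8% were higher by any amount in the relapsed lineage. Genes of pyruvate entry and the citric acid cycle summed to 2301 and 2106 CPM (-0.13), reactive oxygen defence to 3646 and 3264 (-0.16), further assembly factors and electron carriers to 4568 and 4427 (-0.05), and regulators of mitochondrial genes to 689 and 643 (-0.10). In astrocyte-like cells glycolysis genes had 14 of 16 measured members higher by 1.5-fold or more, citric acid cycle genes 6 of 22, and mitochondrial ribosomal proteins 4 of 69, against 18.6% of all genes. Immediate early genes, which respond to dissociation, summed to 1790 and 2023 CPM in the granule lineage and 1737 and 2302 in astrocyte-like cells. In sorted astrocytes, medians of the log2 difference between the stromas were 0.30 over 24 citric acid cycle genes, 0.11 over 75 mitochondrial ribosomal proteins and 0.07 over 18 glycolysis genes, against -0.03 for all genes.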

How the data were processed

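Single-cell values were deposited UMI counts per gene and barcode, with Cell Ranger, STAR, Seurat and mm10 named in the submitters' processing notes without versions. The sorted-cell table held deposited read counts and FPKM per symbol. For its counting tool, strand setting and annotation, the entry is "not given in the sources used here", and 1 column was matched to its sample by the shared start of the name. All sample columns were used (0 left out).

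Cells with at least 500 genes and at most 10% mt- UMIs were kept. The doublet caller's automatic threshold marked 0 cells, so the 6% of cells with the highest scores, 546 primary and 470 relapsed, were removed. Counts were scaled to 10000 UMIs and clustered without members and mt- genes, using 2000 variable genes, 30 components, 15 neighbours and Leiden resolution 1 (scanpy 1.11.5, leidenalg 0.10.2, Python 3.11.15). Clusters were named from marker lists with thresholds chosen after the data were seen, so classes depend on rebuilt names. UMIs were summed per class and library and divided by all UMIs (CPM), with exact Poisson and exact conditional binomial 95% intervals (scipy 1.17.1), which cover counting error only. A gene was measured with at least 50 UMIs over both libraries, and past fold means 1.5-fold.

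Sorted counts were tested with edgeR 4.0.16's quasi-likelihood test (R 4.3.3, TMM scaling, filterByExpr, Benjamini-Hochberg over all genes, threshold 0.05). DESeq2 1.42.0 and limma 3.58.1 on log2(FPKM + 1) were alternatives. On simulated data the edgeR step recovered 191 of 200 genes changed 4-fold among 14007. Those counts were drawn with the same dispersion, 0.05, for every gene, so the recovery does not measure power in the real sorted libraries. The single-cell step recovered 194 of 200 genes changed 2-fold among 12700, with 109 false calls. Positions are GENCODE M21 on mm10. Named genes were the members with the smallest p and highest mean per complex in the sorted libraries, the 5 highest and 5 lowest ratios per cell class, the isoforms and the mt- genes. Members, lists and rules were chosen with earlier results of these data known. Genes of this rule that are not given singly enter the sums, and 1 is not reported here.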

Additional observations from a re-analysis of the deposited data

Results flagged for a closer look

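The summed mt- genes differed in direction between cell classes. Pooled over cells, the log2 ratio of the relapsed over the primary library was -0.21 in astrocyte-like cells, -0.0826 in the granule lineage, -0.78 in oligodendrocyte precursor-like cells and -0.40 in vascular and connective tissue-like cells, but 0.46 in microglia and macrophage-like cells. Without 5 primary cells of over 1% haemoglobin UMIs the astrocyte-like ratio was 0.01 (-0.01 to 0.03), and in cells with at least 1% astrocyte marker UMIs it was -0.15 (-0.17 to -0.12). The median share per cell was 4.74% in the primary, against 5.12% in the relapsed library. With 1 library per state the difference between the classes was not tested.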

How the results depend on the processing

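The summed nuclear level of astrocyte-like cells, 0.38 (log2) as reported, was 0.20 in cells with at most 5% mt- UMIs, 0.23 with mt- and ribosomal UMIs left out of the total and 0.25 as a mean over cells. It was 0.32 in cells with at most 1% haemoglobin UMIs and 0.27 in those with at least 1% astrocyte marker UMIs, both chosen after seeing the data. The summed mt- level in astrocyte-like cells, relapsed against primary, -0.21 over all cells, was 0.00714 and -0.15 in the same subsets, and the first of these leaves out 5 primary cells. The summed nuclear oxidative phosphorylation level in the granule lineage, relapsed against primary, was 0.00474, 0.00486 and 0.00497 under those first 3 settings, and the summed mt- level in the granule lineage, relapsed against primary, was -0.0715, -0.0782 and -0.0671, and -0.0887 with doublets kept. Microglia and macrophage-like over granule cells was -0.31 with doublets kept, -0.38 without mt- and ribosomal UMIs and -0.32 as a mean over cells in the primary library, and -0.35 at 5% mt-, -0.36 and -0.32 in the relapsed library. At the lower fold limit planned, 16 granule members were past it in place of 3. A lower limit passes more genes of any kind, and the share of all genes past it is not given here. The sorted sum, 0.05, was -0.12 without both libraries whose titles share a number, 0.28 from summed FPKM, the values of the limma alternative, and -0.06 to 0.17 leaving out 1 library. The cause was not tested.

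Members passing between stromas stayed at 0 in every alternative run, while calls over all genes were 94 with edgeR, 227 without the filter, 1563 with DESeq2, 181 with limma, 1342 without stroma B replicate 3 and 0 without any other single library. Of 1237 named values under alternatives, 69 changed sign, 41 of them in single cells. The oligodendrocyte precursor-like comparison could not be made with doublets kept or with members kept in the clustering. No paired analysis was possible because the titles of the stromas share only 1 number. A summed mt- level in sorted astrocytes was not analysed here.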
